A study of Mus musculus with 69 samples.

Results

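Nrsn1, Nrsn2 and Trank1 were followed as 3 of the 55964 genes counted in RNA sequencing libraries of the mouse pituitary, hypothalamus and ovary. They were chosen by their normalised counts (CPM) and fold changes in the pituitary, because their RNA was higher in Zeb1 mutant than in wild-type (WT) pituitary, and the same values, with the WT hypothalamus as the yardstick, are described below without a test. The name of the set, strongly raised genes, held for Nrsn2 and Trank1, whereas Nrsn1 was 1.41-fold and 1.503-fold higher in mice with both alleles changed, a modest difference in a gene that the pituitary already expresses.

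The mutant mice carried a Zeb1 allele with point mutations in the sites of its 3′ UTR that pair with the miR-200a and miR-200b families, so that these microRNAs no longer lower Zeb1, a transcription repressor. WT mice had no such allele, Zeb1-200H mice had 1 and Zeb1-200M mice had both, and these groups are called 200H and 200M here. All were females on the C57BL/6J background, killed in proestrus, either as virgins at 8–12 weeks (young cohort) or at 28–36 weeks after a breeding trial (older cohort). Each of the 18 groups held 4 libraries of whole tissue, except 3 in young WT pituitary, older 200M pituitary and older 200M hypothalamus. The allele is present in every cell of the animal. Per the study's methods both cohorts were bred from a pair of embryonic stem cell clones, and which clone each library descends from is not given in the sources used here. In whole tissue, fewer cells of a type and less RNA per cell cannot be told apart. The cohorts also differed in library chemistry (rRNA-depleted and stranded in the young, poly(A)-selected and unstranded in the older), so that age, breeding history and chemistry cannot be told apart, and each cohort was compared within itself.

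The neurensins are small membrane proteins of neuronal vesicles. Neurensin-1, made from Nrsn1, sits in vesicles and endosomes of the cell body and growing neurites, and neurensin-2, made from Nrsn2, is its closest relative. Trank1 encodes a very large protein with tetratricopeptide and ankyrin repeats that is expressed in the brain and whose cellular role is little known. In non-neuronal cells many neuronal genes are held silent by REST, a repressor that recruits histone deacetylases and demethylases through the corepressors Sin3a and Rcor1. ZEB1 is likewise a repressor that binds E-boxes and is best known for silencing epithelial genes.

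On GRCm38 (GENCODE M21), Nrsn1 (ENSMUSG00000048978) lies on the minus strand at chr13:25252040-25270502, and its annotated exons cover 2353 bases. Nrsn2 (ENSMUSG00000059361) is on the minus strand at chr2:152368755-152376638 with 1455 exonic bases. Trank1 (ENSMUSG00000062296) is on the plus strand at chr9:111311739-111395775 with 10520 exonic bases in 22 exons. The exons of Nrsn2 overlap those of Gm14164, a noncoding transcript on the other strand. In the unstranded older libraries reads of Nrsn2 and Gm14164 cannot be told apart where they overlap. In older pituitary and hypothalamus, counted with HTSeq in union mode, such reads go to neither gene. Gm14164 was at 0.235 CPM (counts per 1e+06 counts of a library) in young WT and 0.145 CPM in young 200M pituitary, where counting used strand.

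The microRNAs whose sites were removed from Zeb1 are shown with their seed (bases 2 to 8) in capitals, because the same seeds were then looked for in the 3 genes. Mature sequences are from RefSeq (GRCm38.p6, minus strand), and the families differ by 1 base of the seed.
mmu-miR-200a-3p (chr4:156054911-156054932): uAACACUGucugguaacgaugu
mmu-miR-141-3p (chr6:124717917-124717938): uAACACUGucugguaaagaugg
mmu-miR-200b-3p (chr4:156055685-156055706): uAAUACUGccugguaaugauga
mmu-miR-200c-3p (chr6:124718324-124718346): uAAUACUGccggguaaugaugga
mmu-miR-429-3p (chr4:156053916-156053937): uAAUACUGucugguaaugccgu

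The 1313-base 3′ UTR of Nrsn1 holds 1 match to the seed of the miR-200b family (CAGTATT), at base 869, and it is not followed by the A that would make it an 8mer. It is printed on the strand of the gene with the match in capitals.
Nrsn1 3′ UTR (chr13:25252467-25252495): ctgctatttttCAGTATTtacccaaaata

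The 3′ UTRs of Nrsn2 (746 bases) and Trank1 (1417 bases) hold 0 matches to CAGTATT or to CAGTGTT, the seed match of the miR-200a family, and Nrsn1 holds 0 of the latter. Of 21112 genes with an annotated 3′ UTR, 13.2% hold CAGTATT and 17.1% hold CAGTGTT. A match is a description of the letters and does not show that a site is used.

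The promoter windows run from 250 bases before to 50 bases after the RefSeq start. That of Nrsn1 (chr13:25269947-25270246) lies inside the GENCODE span given above, so the bases before the GENCODE start were not searched. In these windows none of the 3 genes has CACCTG, a form of the E-box bound by ZEB1, on either strand, and 20.2% of 32851 mouse promoters do. The other form, CAGGTA, searched after the data were seen, is in none of the 3 either, and in 12% of promoters. Neither of the parts of the REST element that were searched, TTCAGCACC and GGACAGCGC, occurs in them on either strand. These occur in 0.371% and 0.405% of promoters. The shorter core CACCT, searched after the data were seen, occurs in 51.9% of promoters, 2 times in that of Nrsn2 and 1 time in that of Trank1. The windows around these cores are printed on the strand of the gene with the core in capitals.
Nrsn2 promoter, base -87 (chr2:152376676-152376704): acacccccccccCACCTcccctctccaca
Nrsn2 promoter, base -66 (chr2:152376655-152376683): tctccacagtatCACCTcctcccatccca
Trank1 promoter, base -132 (chr9:111311595-111311623): gagcttcggagcCACCTcgcctcaccctc

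The promoter windows are rich in G and C, with 66.7% in Nrsn1, 60.3% in Nrsn2 and 71.7% in Trank1. That of Trank1 holds 40 CG pairs, more than 96.1% of all promoters, that of Nrsn1 26 and that of Nrsn2 12.

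Libraries held 3321845 to 14655095 counts. The tissues carried their own markers: the summed level of 7 pituitary hormone genes was 70240 CPM or more in each pituitary library and at most 167.5 CPM in each hypothalamus library. Of the hypothalamus libraries, young 200M replicate 1 stood apart, with 175.9 CPM summed over 8 hypothalamic neuropeptide genes against 330.5 to 499.4 CPM in the other 11 young libraries, and the result that rests on it is given with and without it. Zeb1, the edited gene, was at 87.8 to 92.5 CPM in young WT pituitary, 127.5 to 138.2 CPM in 200H and 133 to 145.6 CPM in 200M, with no overlap of mutants and WT. In older pituitary it was at 51.2 to 58.9 CPM in WT, 73.2 to 81.1 CPM in 200H and 82.6 to 96.7 CPM in 200M.

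Trank1 was barely detected in WT pituitary and well above that in every mutant one. The 3 young WT pituitaries had 0.788, 1.53 and 1.90 CPM of Trank1, from 8 to 18 counts. The 4 young 200H pituitaries had 8.99, 12.0, 13.3 and 13.7 CPM, and the 4 young 200M pituitaries 19.7, 20.5, 20.9 and 25.1 CPM. The 3 genotypes thus formed 3 separate ranges in the order of allele number. In the older cohort Trank1 was at 0.950, 1.67, 1.78 and 2.05 CPM in WT, from 5 to 23 counts, at 11.01, 13.6, 15.6 and 18.3 CPM in 200H, and at 30.7, 38.8 and 40.4 CPM in 200M. These ranges were again apart. The fitted log2 fold change of Trank1 against WT, from edgeR with TMM scaling, was 3.82 (SE 0.22) in young and 4.25 (SE 0.19) in older 200M, which is 14.1-fold and 19.0-fold. In 200H it was 2.96 (SE 0.27) in young and 2.93 (SE 0.22) in older mice.

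Nrsn2 had a low but measurable level in WT pituitary, at 5.52, 6.71 and 7.08 CPM in young WT. It reached 42.7, 44.2, 51.9 and 56.7 CPM in young 200H, and 62.6, 65.2, 66.8 and 67.9 CPM in young 200M. In older pituitary the levels were 3.73, 3.94, 4.75 and 6.47 CPM in WT, 23, 23.4, 25.3 and 28.2 CPM in 200H, and 27.4, 34.4 and 38.8 CPM in 200M. Mutants and WT did not overlap in either cohort, and 200H and 200M overlapped in the older one only. The log2 fold change of Nrsn2 against WT was 3.23 (SE 0.10) in young 200M and 2.65 (SE 0.19) in older 200M, or 9.37-fold and 6.29-fold. In 200H it was 2.80 (SE 0.13) in young and 2.23 (SE 0.17) in older mice. Gm14164, which shares the place of Nrsn2 on the other strand, was at 0.301 CPM in older WT, 1.74 CPM in older 200H and 1.32 CPM in older 200M pituitary. How far reads lost to the overlap lowered the older Nrsn2 values was not tested.

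Nrsn1 differed from the other 2 in that WT pituitary already expressed it well, at 105, 109 and 115.5 CPM in the young cohort. It was at 127, 144, 151 and 165 CPM in young 200H and at 155, 169.8, 173 and 176 CPM in young 200M. In older mice it was at 83.9, 88.4, 92.1 and 96.5 CPM in WT, at 144, 152, 158 and 192 CPM in 200H and at 145, 150 and 164 CPM in 200M. Every mutant library lay above every WT library of its cohort, and 200H and 200M overlapped in both. The log2 fold change of Nrsn1 against WT was 0.50 (SE 0.07) in young and 0.59 (SE 0.08) in older 200M, and 0.29 (SE 0.08) and 0.68 (SE 0.11) in 200H.

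**Figure D1:**
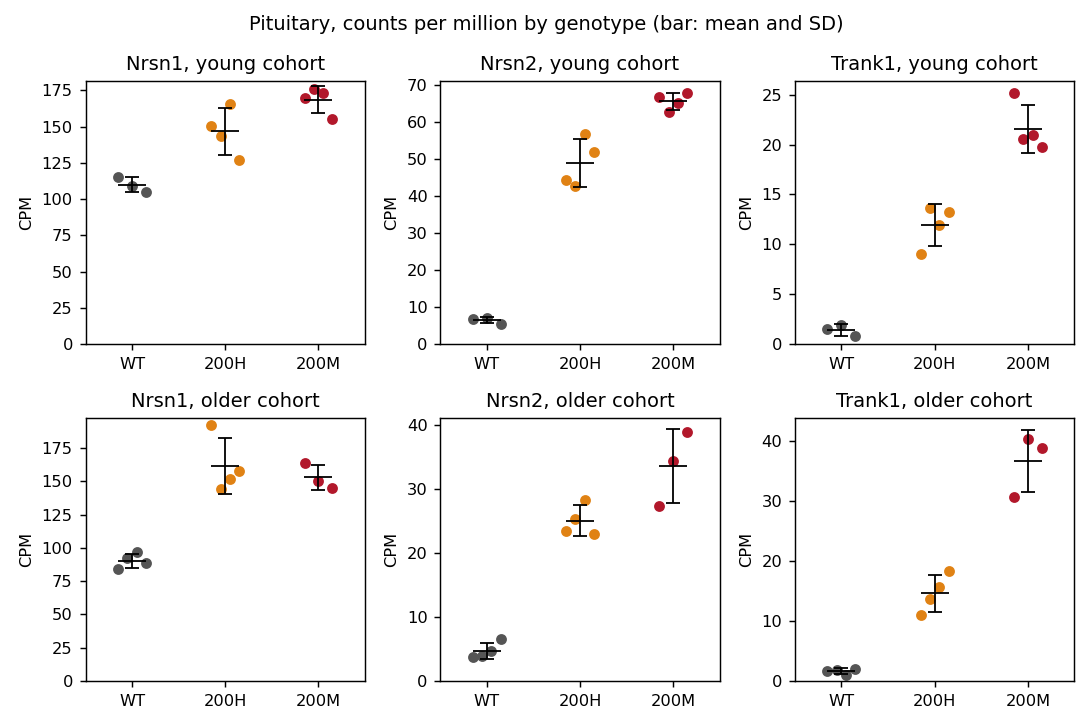
CPM (counts per 1e+06 counts) of Nrsn1, Nrsn2 and Trank1 in each pituitary library, by genotype (x axis) and cohort, with the group mean and SD as bars. The y axes start at 0 and differ between panels. Mutant points lie above all WT points in the 6 panels, and for Trank1 the WT, 200H and 200M points do not overlap.

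By the size of the log2 fold change, Trank1 was 5th from the top of 18199 genes in young 200M and 5th of 14711 genes in older 200M. Nrsn2 was 14th and 25th, while Nrsn1 was 2008th and 1350th. In the fit of all genes at an adjusted p under 0.05, 11.5% of genes were raised and 10% lowered in young 200M, and 11.7% were raised and 9.77% lowered in older 200M. In 200H, 6.56% were raised and 5.72% lowered in the young cohort, and 7.09% were raised and 5.14% lowered in the older one. Since these contrasts chose the 3 genes, nothing is read from those shares for them. The share of counts taken by the hormone genes Gh, Prl and Pomc fell with genotype, from 15.3–17.0% in young WT to 6.94–8.69% in young 200M and from 27.0–29.4% in older WT to 17.2–21.5% in older 200M. Levels in CPM of the whole library move with this share, whereas TMM scaling reduces its weight, and the fold of Nrsn1 in young 200M was 1.53 from CPM and 1.41 from the fit.

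The 200H mice show the level reached with a single mutant allele. The 200H mean of Trank1 lay 52.4% of the way from the WT to the 200M mean in young and 37.2% in older pituitary. For Nrsn2 these values were 71.7% and 70.4%, and for Nrsn1 62.8% and 113.9%, where older 200H exceeded 200M. The difference between 200M and 200H was tested with edgeR over all genes, in a comparison that shares its libraries with those that chose the genes. Choosing genes for high mutant levels can favour a rise from 200H to 200M. For the 3 genes the adjusted p-values of this contrast therefore describe the fit and are not independent evidence. EdgeR called 0.0383% of genes in young and 0.121% in older pituitary, with 7 and 18 genes. Trank1 was 1 of the 18, with a fitted log2 change of 1.33 (SE 0.15, adjusted p = 0.0178) and each of 3 200M libraries above each of 4 200H libraries. That call was lost without 200M replicate 2 (log2 fold change 1.27, adjusted p = 0.0736) or without 200M replicate 3 (1.27, adjusted p = 0.147), and over all 13 fits the adjusted p ran from 7.80e-19, without a filter on low counts, to 0.147. In young pituitary Trank1 did not pass, at 0.85 (SE 0.14, adjusted p = 0.0637), but passed in 4 of 14 fits: in DESeq2 (adjusted p = 0.000277), without a filter on low counts (adjusted p = 7.86e-08), without 200H replicate 2 (adjusted p = 0.0491) and without 200H replicate 3 (adjusted p = 0.0455), with a range of 7.86e-08 to 0.258.

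Nrsn2 was not called between 200M and 200H by edgeR, with log2 fold changes of 0.43 (SE 0.08, adjusted p = 0.125) in young and 0.42 (SE 0.13, adjusted p = 0.244) in older pituitary. In the young cohort the 200M and 200H ranges were apart, and Nrsn2 passed in 3 of 14 fits: in DESeq2 (adjusted p = 0.00162), without a filter (adjusted p = 0.00133) and without 200H replicate 3 (adjusted p = 0.0299), with a range of 0.00133 to 0.45. Nrsn1 was not called in either cohort, at 0.20 (SE 0.07, adjusted p = 0.704) and −0.10 (SE 0.11, adjusted p = 0.816).

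The WT hypothalamus gives a measure of how high these genes run in a brain tissue, which holds glia as well as neurons. General neuron markers there summed to 4816 to 5064 CPM in young and 3967 to 4195 CPM in older WT. Oligodendrocyte markers summed to 2383 to 2804 CPM in young and 3898 to 5463 CPM in older WT. Young WT hypothalamus had 302.5, 305, 318 and 328 CPM of Nrsn1, 367, 377, 390.3 and 409 CPM of Nrsn2, and 254, 259, 259 and 278 CPM of Trank1. The mean of Nrsn1 was 35.04% ± 1.67 (SD, n = 3) of that level in young WT pituitary, 46.8% ± 5.09 (n = 4) in 200H and 53.8% ± 2.94 (n = 4) in 200M. For Nrsn2 the values were 1.67% ± 0.21, 12.7% ± 1.70 and 17.0% ± 0.60, and for Trank1 0.536% ± 0.216, 4.56% ± 0.81 and 8.21% ± 0.93. No mutant pituitary of either cohort reached the lowest WT hypothalamus for any of the 3 genes. In the older cohort, where WT hypothalamus had 309 to 388 CPM of Nrsn1, 270.3 to 300.1 CPM of Nrsn2 and 268.5 to 371 CPM of Trank1, the 200M pituitary stood at 42.9% ± 2.71 for Nrsn1, 11.7% ± 2.01 for Nrsn2 and 10.9% ± 1.55 for Trank1 (SD, n = 3). Older 200H stood at 45.4% ± 5.95, 8.70% ± 0.84 and 4.35% ± 0.92 (SD, n = 4).

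**Figure D2:**
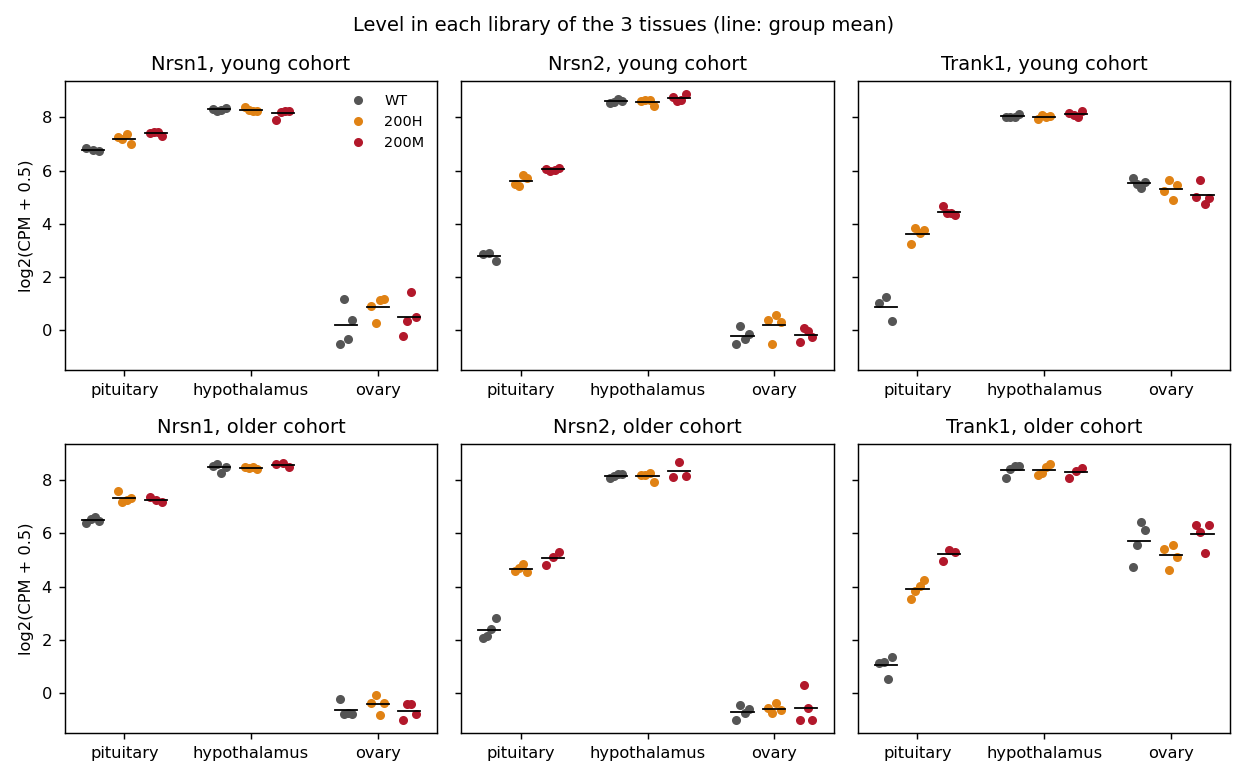
Level of each gene as log2(CPM + 0.5) in every library, by tissue (x axis), genotype (colour) and cohort, with the mean of each group as a line. The 3 genes are highest in hypothalamus. The neurensins are near the floor in ovary, and Trank1 is higher in ovary than in WT pituitary.

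The balance of the neurensins also differed between tissues. Per kilobase of exon, Nrsn1 exceeded Nrsn2 by 10.6-fold ± 1.13 (SD, n = 3) in young and 12.3-fold ± 2.72 (n = 4) in older WT pituitary. In WT hypothalamus the ratio was the other way, at 0.503 ± 0.032 (n = 4) in young and 0.77 ± 0.102 (n = 4) in older mice. In 200M pituitary it was 1.59 ± 0.14 (n = 4) in young and 2.90 ± 0.72 (n = 3) in older mice, and in 200H 1.88 ± 0.28 and 4.04 ± 0.80 (n = 4 each). The mutant ratio thus lay between those of WT pituitary and WT hypothalamus in both cohorts, and its ranges met neither. In the older cohort reads over both Nrsn2 and Gm14164 were left out, but the full exon length was used. Nrsn2 may therefore be understated in the older ratios, to an extent that was not tested. The ratios of both cohorts use the values that chose the genes and were not tested.

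In the hypothalamus, which was not used to choose the genes, none of the 3 genes was called in any of the 6 contrasts. Of 18 tests, 3 genes in 6 contrasts, edgeR called 0 and DESeq2 0, and 1 had an unadjusted p under 0.05. Over all genes edgeR called 0.02% in young 200M against WT, 0.0202% in young 200H against WT and 0% in young 200M against 200H. In older hypothalamus it called 0.00622% in 200M against WT, 0% in 200H against WT and 0% in 200M against 200H. In these last 3 contrasts 2904, 445 and 3144 genes passed an unadjusted 0.05 in edgeR, whereas DESeq2 called 619, 5 and 668, none of them one of the 3 genes. In young 200M against 200H 682 genes passed an unadjusted 0.05 in edgeR, whereas DESeq2 called 0. The log2 fold changes of the 3 genes ran from −0.17 to 0.19, with SE of 0.05 to 0.13.

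The 1 low unadjusted p belonged to Nrsn1 in young hypothalamus. The 4 libraries of 200M had 240.6, 296, 299 and 302 CPM against 302.5 to 328 CPM in WT, so that each lay below each WT library, the opposite of the pituitary. The fitted log2 change was −0.17 (SE 0.07, unadjusted p = 0.0317, adjusted p = 0.871). Without 200M replicate 1, the library with few neuropeptide counts, it was −0.10 (SE 0.07, adjusted p = 0.674). In older hypothalamus Nrsn1 had a fitted log2 change of 0.06 (SE 0.09, adjusted p = 0.752) in 200M. Nrsn2 was at 280, 286 and 410.3 CPM in older 200M hypothalamus, so that its mean of 325 CPM there rests on 1 library, and its log2 fold change was 0.15 (SE 0.12, adjusted p = 0.55), or −0.05 without that library (200M replicate 2). Trank1 was at 259 to 303 CPM in young 200M and 266.5 to 351 CPM in older 200M, overlapping WT in both cohorts.

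In the ovary the neurensins were all but absent and Trank1 was not. Nrsn1 was at most 2.21 CPM, from 14 counts, and Nrsn2 at most 0.999 CPM in young ovary, and in older ovary 0.452 and 0.751 CPM. Both fell below the filter on low counts in most ovary contrasts. Of 18 combinations of gene and contrast 8 could be tested, 6 of Trank1 and 2 of Nrsn1. EdgeR called 0 of the 8, and 2 had an unadjusted p under 0.05. DESeq2 also called 0 but gave no adjusted p for Nrsn1 in young 200H against WT. Over all genes edgeR called 2.58% in young 200M against WT, 0.0051% in young 200H against WT and 0% in young 200M against 200H. In older ovary these shares were 2.71%, 0% and 1.61%. The contrasts at 0% had 648 genes (young 200M against 200H) and 1160 genes (older 200H against WT) at an unadjusted p under 0.05 in edgeR. There DESeq2 called 0 and 21.

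Trank1 was present in WT ovary at 40.3, 45.1, 47.6 and 52.6 CPM in young and 26.3, 47.1, 69.3 and 84.8 CPM in older mice, above every WT pituitary and, in the young cohort, above every mutant pituitary. In young 200M ovary it was at 26.2, 30.7, 31.5 and 49.97 CPM, a fitted log2 change of −0.45 (SE 0.17, unadjusted p = 0.0173, adjusted p = 0.186) against WT. Without replicate 2, the highest of these libraries, Trank1 passed, with a fitted log2 change of −0.70 (SE 0.11, adjusted p = 0.00114). A fit of all libraries without the filter on low counts also passed, at −0.46 (adjusted p = 0.00566). Over 14 fits the adjusted p ran from 0.00114 to 0.42. In older ovary Trank1 was at 37.8, 66.2, 78.0 and 79.0 CPM in 200M and at 23.9, 34.2, 42.5 and 46.2 CPM in 200H. There 200M exceeded 200H by a fitted log2 change of 0.80 (SE 0.27, unadjusted p = 0.0168, adjusted p = 0.23), which did not pass, and 200M against WT gave 0.16 (SE 0.37, adjusted p = 0.848), or −0.10 without WT replicate 1.

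**Figure D3:**
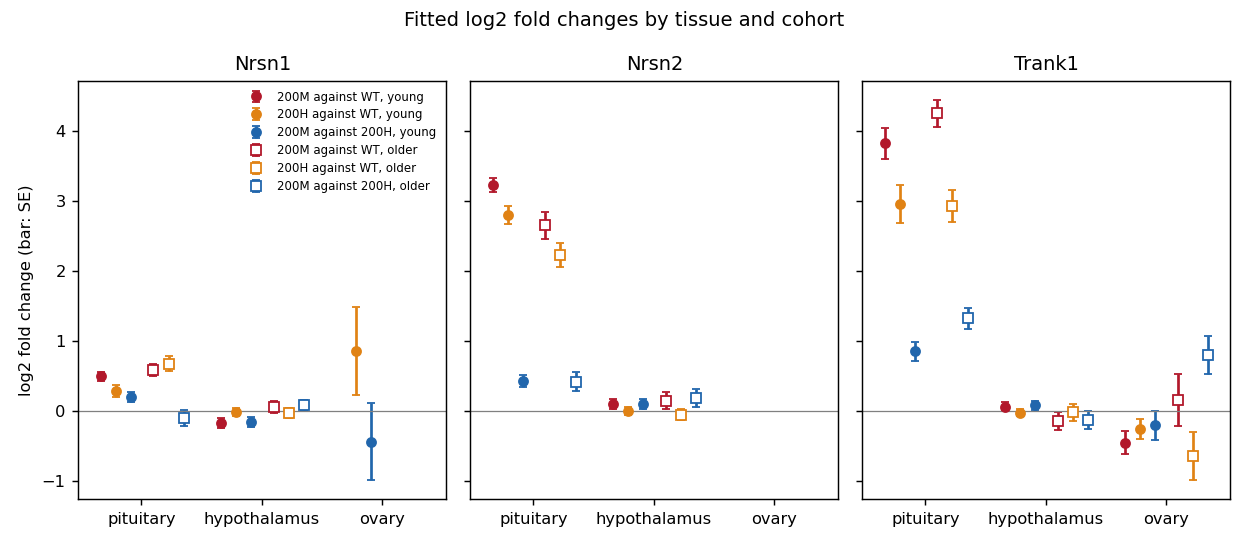
Fitted log2 fold change with its SE (y axis) of each gene by tissue, for 200M against WT (red), 200H against WT (orange) and 200M against 200H (blue) in the young (filled circles) and older (open squares) cohorts. Values that fell below the filter on low counts are left out. The pituitary values against WT chose the genes, and hypothalamus values stay between −0.17 and 0.19.

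Ordered by mean CPM, the neurensins ran from hypothalamus through pituitary to ovary in both cohorts. Within the hypothalamus the ranges of neighbouring genotypes overlapped, and so did those within the ovary. The lowest hypothalamus group was apart from the highest pituitary group, WT pituitary was apart from the mutants, and the ovary was apart below. Trank1 had another order, hypothalamus, ovary and pituitary. Its 3 young pituitary groups lay apart from each other and from the ovary. In older mice 200M pituitary (30.7 to 40.4 CPM) overlapped the ovary of each genotype. Older ovary was at 26.3 to 84.8 CPM in WT, 23.9 to 46.2 CPM in 200H and 37.8 to 79.0 CPM in 200M.

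The genes whose levels over the 9 groups of a cohort ran most like those of each gene were sought by Pearson r of group means on the log2(CPM + 0.5) scale, taking the lower r of the 2 cohorts over 18120 genes. Points share libraries and tissue, and r is a description only. Nrsn1 ran most like Disp2, a gene of the Dispatched family (r = 0.999), Car10, a carbonic anhydrase-related gene (0.999), Snap25, a SNARE of the synapse (0.999), Grin1, the obligate NMDA receptor subunit (0.999), and Cdh18, a cadherin (0.999). Nrsn2 ran most like Lrrc4b, a synaptic adhesion gene (0.998), Castor2, of the arginine sensor family (0.996), Rcan2, a regulator of calcineurin (0.996), and Fstl5 (0.995). Lrrc4b had 9.43 CPM in young WT pituitary, 44.8 CPM in 200M and 151 CPM in WT hypothalamus. A high r does not mean a change of like size: Castor2 had 73.05 CPM in young WT pituitary and 112.5 CPM in 200M.

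Trank1, with its ovary level, ran most like Grin2b, an NMDA receptor subunit (r = 0.986), Donson, a gene of DNA replication (0.983), Hs6st2, a heparan sulfate sulfotransferase (0.979), Pxylp1 (0.978) and Eps15, an endocytic adaptor (0.977). Grin2b was at 4.85 CPM in young WT pituitary, 38.8 CPM in 200M and 100.4 CPM in WT ovary. Donson changed less, from 6.10 CPM in young WT pituitary to 10.1 CPM in 200M. Between the 3 genes, r was 0.932 for the neurensins, 0.519 for Nrsn2 and Trank1, and 0.182 for Nrsn1 and Trank1. The neurensins were not each other's nearest genes: Nrsn2 was 877th from the top for Nrsn1.

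Genes of REST silencing and of neuronal vesicles and neurites were counted from 3 lists that leave out the 3 genes. Whether REST acts on the 3 genes was not tested. The lists were written with results of these data known, so that their direction is not independent evidence. The first list holds REST and 12 corepressor genes. In young 200M pituitary 0 of 13 were raised and 0 lowered by edgeR, where 11.5% of all genes were raised and 10% lowered. DESeq2 called 0 and 2 had an unadjusted p under 0.05, with a median log2 fold change of 0.010 against 0.002 over all genes tested. In older 200M 0 were raised and 1 lowered, where 11.7% and 9.77% of all genes were, with a median of −0.05 against −0.01. With 13 genes, these counts are not read as a result about the list. Rest was at 12.4 CPM ± 1.52 (SD, n = 3) in young WT and 13.1 CPM ± 1.77 (n = 4) in 200M, a fitted log2 change of −0.05 (SE 0.14, adjusted p = 0.835), and in older 200M −0.01 (SE 0.16, adjusted p = 0.983). The lowered gene was Ehmt2, a histone H3 methyltransferase, at −0.25 (adjusted p = 0.0417) in older 200M, a call lost without any of 200M replicates 1, 2 and 3 or WT replicates 2, 3 and 4. In older 200H the corepressor Rcor2 was raised by 0.73 (adjusted p = 0.00987), where 7.09% of all genes were raised and 5.14% lowered. Rcor2 was not called in older 200M (0.21, adjusted p = 0.449), young 200M (0.26, adjusted p = 0.452) or young 200H (0.04, adjusted p = 0.942). These 2 genes were named after their values were seen.

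The second list holds 23 neuronal genes described as held silent by REST. Its name describes the list and not this tissue: young WT pituitary had 492 CPM of Syt4 and 454 CPM of Snap25, 2 of its genes named here after their values were seen. In young 200M pituitary 11 were raised and 1 lowered, where 11.5% of all genes were raised and 10% lowered, with a median log2 fold change of 0.27 against 0.002 over all genes. In older 200M 14 were raised and 1 lowered, where 11.7% and 9.77% of all genes were, with a median of 0.40 against −0.01. In 200H 7 were raised and 0 lowered in each cohort by edgeR, where 6.56% and 5.72% of all genes were in young and 7.09% and 5.14% in older mice. Leaving out 1 library took the count of 14 to 9 (without 200M replicate 1 or 2), the young 7 to 4 (without WT replicate 1 or u) or 3 (without WT replicate 2), and the older 7 to 4 (without 200H replicate 3 or WT replicate 1). Among the called genes with the largest change in young 200M were Vgf, a precursor of secreted neuropeptides, and Cplx1, a complexin that binds SNAREs. Vgf went from 11 CPM ± 1.89 (n = 3) in young WT to 52.4 CPM ± 12.3 (n = 4) in 200M, a fitted log2 change of 2.14 (SE 0.18, adjusted p = 1.33e-06). Cplx1 rose by 1.67 (SE 0.34, adjusted p = 0.00264) from 0.931 CPM. In older 200M Vgf and Cplx1 changed by 2.37 and 2.63 on the log2 scale. The lowered genes, named after their values were seen, were Syt4, a synaptotagmin, in the young cohort (−0.33, adjusted p = 0.00658) and Celsr3, a cadherin of axon guidance, in the older (−0.37, adjusted p = 0.0046).

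The third list holds 19 membrane proteins of neuronal vesicles, endosomes and neurites, the compartments of the neurensins. In young 200M 13 were raised and 0 lowered, where 11.5% of all genes were raised and 10% lowered, with a median log2 fold change of 0.33 against 0.002 over all genes. In older 200M 14 were raised and 0 lowered, where 11.7% and 9.77% of all genes were, with a median of 0.60 against −0.01. In 200H 7 were raised in young and 6 in older mice, with 0 lowered in either, where 6.56% and 7.09% of all genes were raised, and without WT replicate 1 the 7 became 4. Gap43, a protein of growth cones, went from 0.926 CPM ± 0.208 (n = 3) to 5.31 CPM ± 1.41 (n = 4) in young 200M, a fitted log2 change of 2.38 (SE 0.33, adjusted p = 0.000101). Syngr3, a synaptogyrin of synaptic vesicles, rose by 1.96 (SE 0.37, adjusted p = 0.00141), and Gpm6a, a neurite membrane glycoprotein, by 1.03 (SE 0.08, adjusted p = 5.11e-07) from 118.5 CPM. 

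**Figure D4:**
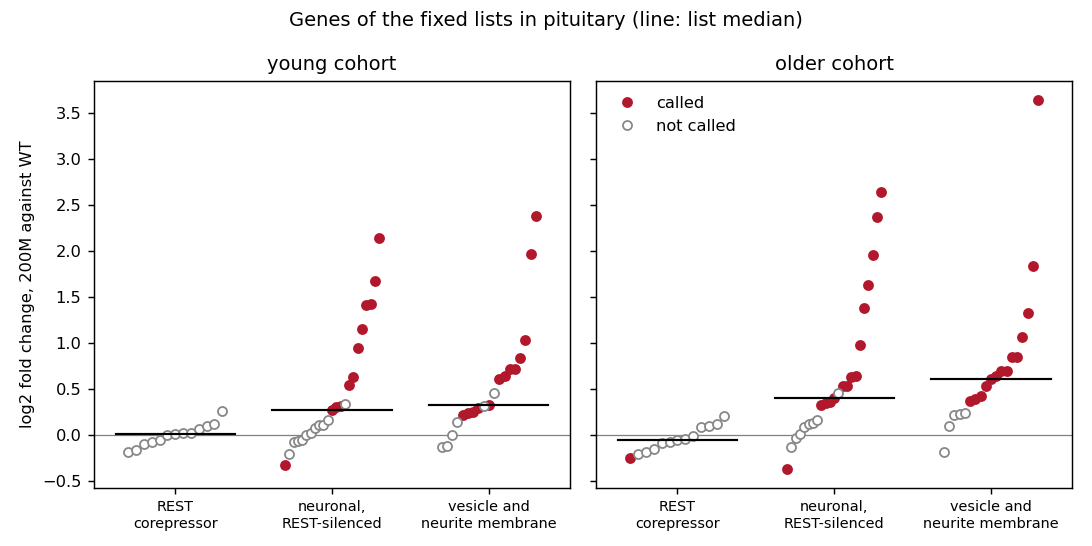
Log2 fold change of 200M against WT in pituitary (y axis) for each gene of the 3 lists (x axis), in the young (left) and older (right) cohorts, with the median of each list as a line. Filled points passed an adjusted p of 0.05 in edgeR. The REST corepressor genes lie near 0, and in the other lists most called genes lie above it.

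Markers of several cell types were counted in the same libraries, where 11.5% of all genes were raised and 10% lowered in young 200M, and 11.7% and 9.77% in older 200M. Of 6 general neuron markers 4 were raised in young and 5 in older 200M pituitary and 0 lowered, and their summed level was 1335 to 1348 CPM in young WT and 1937 to 2072 CPM in 200M, and 741 to 796 CPM in older WT and 1301 to 1465 CPM in 200M. These neuron markers include Syn1 and Snap25, which are also in the second list. Young WT pituitary had 263 and 454 CPM of them, so they are not markers of foreign cells alone. Of 8 neuropeptide genes of hypothalamic neurons only 2 could be tested, and Pmch and Crh were at 0 in all WT pituitaries of both cohorts. Their sum was 2.33 to 5.18 CPM in young WT and 2.25 to 4.68 CPM in young 200M, and 5.09 to 7.47 CPM in older WT and 12.6 to 15.5 CPM in older 200M, where Oxt was raised by 1.25 (adjusted p = 0.00494). In WT hypothalamus that sum was 415.2 to 471 CPM in the young and 882 to 1167 CPM in the older cohort. Of 7 markers of pituicytes and astroglia 2 were raised in each cohort, of 5 immune markers 3 in the young and 1 in the older, and of 4 markers of fibroblasts and pericytes 2 and 1. Of 4 oligodendrocyte markers 2 could be tested in each cohort. Mbp was lowered in both (−1.08 and −0.79), and the other tested marker was not called in either. The median of the 2 tested markers was −0.46 in young and −0.39 in older 200M. Of 4 endothelial markers edgeR and DESeq2 called 0 in either cohort, with 1 at an unadjusted p under 0.05 in the young. Of 4 stem cell markers 3 could be tested in young and 2 in older 200M, and 1 was raised in older 200M. Of 7 hormone genes 3 were lowered in each cohort and 1 raised in the older. The part of these cells in the levels of Nrsn1, Nrsn2 and Trank1 was not tested.

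The chromosomal neighbours were examined next, because a change could reach beyond 1 gene. Within 200 kb of the 3 genes GENCODE M21 lists 22 other protein-coding genes, of which 11 had enough counts in young and 10 in older 200M against WT. In young 200M 1 of 11 was raised and 1 lowered, where 11.5% and 10% of all genes were, so that these counts say nothing particular to the neighbours. In older 200M 2 of 10 were raised and 3 lowered, where 11.7% and 9.77% of all genes were. Their median log2 fold change was −0.07 and −0.17.

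The gene raised in both was Dclk3, a doublecortin-like kinase that begins 43.3 kb past the end of Trank1 on the same strand. Dclk3 was at 1.08, 1.16 and 1.44 CPM in young WT, 2.69, 3.02, 3.08 and 5.98 CPM in 200H and 4.10, 4.49, 5.32 and 5.53 CPM in 200M. In older pituitary it was at 1.13, 1.90, 2.06 and 2.39 CPM in WT, 7.93, 8.69, 8.98 and 9.50 CPM in 200H and 6.58, 11.9 and 14.2 CPM in 200M. Mutants and WT did not overlap. The fitted log2 change in 200M was 1.86 (SE 0.26, adjusted p = 0.000115) in the young and 2.31 (SE 0.32, adjusted p = 0.000383) in the older cohort, and in 200H 1.43 (SE 0.35, adjusted p = 0.0162) and 2.04 (SE 0.22, adjusted p = 8.26e-05). In the young 200H fit this call, the only raised neighbour there, was lost without WT replicate u.

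**Figure D5:**
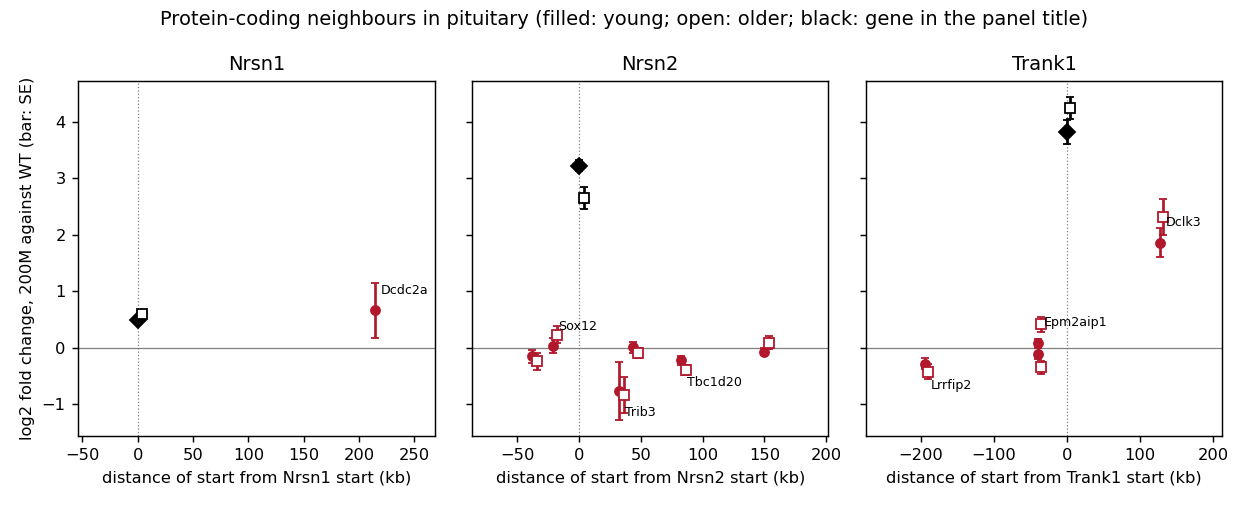
Log2 fold change with SE of 200M against WT in pituitary (y axis) for the protein-coding neighbours of each gene, by the distance of their start from its start in the direction of transcription (x axis, kb). Filled symbols are young, and open symbols, drawn slightly to the right, are older. Dclk3 stands above 0 beside Trank1, and the other neighbours lie between −0.83 and 0.66.

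On the other side of Trank1, Epm2aip1, which encodes a partner of laforin, 32.6 kb before Trank1, was not called in young 200M (0.09, SE 0.06, adjusted p = 0.318) and was raised in older 200M (0.41, SE 0.13, adjusted p = 0.0363). Lrrfip2 (−0.42, adjusted p = 0.0356) was lowered in older 200M and did not pass in young 200M (−0.28, adjusted p = 0.0535), and the difference between cohorts was not tested. Beside Nrsn2 the nearest genes were Sox12, a transcription factor 17.0 kb before its start (0.03, adjusted p = 0.891, and 0.23, adjusted p = 0.276), and Trib3, a pseudokinase 24.7 kb past its end (−0.77, adjusted p = 0.326, and −0.83, adjusted p = 0.0848). Tbc1d20, a Rab GTPase-activating protein 54.8 kb past the end of Nrsn2, was lowered in young (−0.23, adjusted p = 0.0379) and older 200M (−0.40, adjusted p = 0.00589). The young call of Tbc1d20 was lost without 200M replicate 2 or 4 or WT replicate 1 or u. In older 200M 1 neighbour stayed raised and 1 lowered without any single 200M library or WT replicate 2 or 3, and without WT replicate 1 the lowered ones were also 1. The only protein-coding neighbour of Nrsn1 was Dcdc2a, a doublecortin-domain gene 41.3 kb past its end. It was at 0.835 CPM in young WT and 1.53 CPM in young 200M (0.66, SE 0.49, adjusted p = 0.386), and at 1.03 CPM in both older groups.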

How the data were processed

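RNA of 69 mouse libraries (18 groups) was measured. Reads had been aligned by the authors to mm10 (GRCm38) with STAR 2.7.1a. The deposited raw counts per gene came from featureCounts, stranded for the young cohort and unstranded for the older ovary, and from HTSeq 0.9.1 without strand for the older pituitary and hypothalamus. The 18 tables also hold the authors' normalised values and DESeq2 (1.18 and 1.38.3) log2 fold changes and p-values, which were not used, nor were 3 count columns that match no sample label. A WT column of the young pituitary whose number matches no label is called replicate u.

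CPM was the count per 1e+06 counts of a library. Genes passing filterByExpr were fitted with edgeR 4.0.16 (R 4.3.3, limma 3.58.1; TMM, quasi-likelihood, 2 genotypes per fit), and p-values were Benjamini-Hochberg adjusted over all genes tested, with a threshold of 0.05. The fits were tested on simulated counts. Among 99 pairs of libraries of 1 group none differed by less than sampling noise. Replicates are biological ones per the study's methods.

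The members and lists were chosen with earlier results of these data known. Named genes are the members, Zeb1, the 5 most alike genes per member, the 3 called genes of largest change per list, Rest, and neighbours called in 200M or nearest on each side. Genes outside that rule are said to be so or are cell markers. Some genes under the rule are not reported here. Alternatives were size factors of DESeq2 (1.42.0) in edgeR, DESeq2 itself, no filter, all 3 genotypes in one fit, a replicate block, each replicate left out, other library totals, a pseudocount of 5 CPM and no minimum CPM.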

Additional observations from a re-analysis of the deposited data

Results flagged for a closer look

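Nrsn1 was at 240.6 CPM in young 200M hypothalamus replicate 1, far from the other 3 libraries of its group (295.6 to 302 CPM). The same library had the low sum of hypothalamic neuropeptide genes (175.9 CPM), and the part of that difference in the level of Nrsn1 was not tested. Nrsn1 was also at 0.3588 CPM, from 4 counts, in older WT ovary replicate 1, against 0.0754 to 0.0902 CPM in the other 3. Of 45 groups examined for a library standing apart, chance gives about 1 in 20.

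All 4 young 200M hypothalami were below the WT mean of Nrsn1, at 0.9066 of it on average, while all young 200M pituitaries and all 3 older 200M hypothalami were above their own WT means. All older 200H ovaries were below the WT mean of Trank1, at 0.6451 of it on average, while all older 200H pituitaries were above theirs. These differences between tissues and cohorts were not tested.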

How the results depend on the processing

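Of 106 results, 61 stayed the same under every alternative. For tested changes this meant the same direction and the same side of the threshold. Counts, percents and other untested values were marked as moved where the value changed, as 80 alternative values did. Of 1241 alternative values 16 changed sign, in 10 results that were not called in any of these fits, 9 of them in hypothalamus or ovary. Without 200H replicate 1, Nrsn1 in older pituitary, 200M against 200H, turned to 0.0201, and leaving out each library gave −0.16 to 0.0201. For Trank1 in 200M against 200H the young value was 0.87 without a filter and 0.85 in DESeq2, both called, and 0.74 to 0.95 with 1 library left out, and the older value was 1.22 to 1.45. For Nrsn2 in young mice it was 0.44 and 0.43, both called, and 0.39 to 0.49. With 1 library left out, 200H against WT in hypothalamus ran from −0.0413 to 0.0044 (young) and −0.0867 to 0.023 (older) for Nrsn1, from −0.0255 to 0.0400 and −0.083 to 0.00999 for Nrsn2, and from −0.036 to 0.00877 and −0.113 to 0.056 for Trank1. In older 200M hypothalamus Nrsn2 ran from −0.0482 to 0.239 against WT and −0.00402 to 0.288 against 200H, and in older 200M ovary Trank1 from −0.104 to 0.415 against WT. Calls in the young ovary (200M against WT) went from 0 to 1 without a filter, and were 0 to 1 with 1 library left out.

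With Gh, Prl and Pomc taken out of the total, which raises pituitary CPM, the percent of WT hypothalamus was 58.4 (young 200M), 56.9 (older 200H) and 53.3 (older 200M) for Nrsn1, 18.5, 10.9 and 14.5 for Nrsn2, and 5.42 (older 200H) and 13.5 (older 200M) for Trank1.

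Replicate numbers were not treated as pairs in the main fits. Of 64 same-numbered pairs 13 correlated above 0.1 (r −0.65 to 0.45), 6 of them among the 12 of older ovary. Pairs with different numbers are not reported here, so whether the numbers pair the samples is not settled. With the replicate block, which drops young WT pituitary replicate u, Nrsn2 in young 200H against WT was 2.57, raised neuronal genes of the REST list there were 4, lowered vesicle genes 1, raised neighbours 0, and lowered neighbours in young 200M 0.

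Lowered REST corepressor genes in young 200H were 1 with size factors, in DESeq2 and with all 3 genotypes in one fit (0 to 1 with 1 library left out), and in older 200M 0 without a filter (0 to 1). Of the neuronal genes of the REST list, 1 to 2 were lowered in young 200M, 3 to 6 raised and 0 to 1 lowered in young 200H (2 lowered without a filter), 9 to 14 raised in older 200M, and 4 to 7 raised and 0 to 1 lowered in older 200H with 1 library left out. Of vesicle genes in young 200H, 4 to 7 were raised and 0 to 1 lowered, with 1 lowered without a filter and with all 3 genotypes in one fit. Lowered neighbours in young 200M were 2 with size factors, 0 without a filter and 0 to 2 with 1 library left out. Raised neighbours in young 200H were 0 to 1, and lowered ones 1 with all 3 genotypes in one fit. In older 200M 1 to 2 were raised and 1 to 3 lowered, and in older 200H 0 to 1 were lowered, 1 in DESeq2 and with all 3 genotypes in one fit. Of the 5 most alike genes, a pseudocount of 5 CPM kept 1 for Nrsn2 and 3 for Trank1, and leaving out a replicate number kept 3 to 4 for Nrsn1, 3 for Nrsn2 and 2 to 3 for Trank1. The causes of these moves were not tested. The core CACCT, chosen after seeing the data, matched 2 and 1 times where CACCTG matched 0 times in Nrsn2 and Trank1, and CAGGTA, also chosen then, matched 0 times.

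With 5 to 23 Trank1 counts in a WT pituitary, its fold change is the least precise of the 3, and Nrsn1 and Nrsn2 in ovary, at 0 to 14 counts a library, were mostly below the filter.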
